A study of Mus musculus with 4 samples.

Results

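The genes of the proteasome were followed in RNA-seq libraries of mouse brain cells labelled excitatory or inhibitory. The members are all rows of the 4 deposited tables whose symbol begins with Psma, Psmb, Psmc, Psmd, Psme, Psmf or Psmg and a digit, which gave 50 of 24421 rows. Of these, 48 fall into a class: 8 core alpha, 7 constitutive core beta, 4 alternative core beta (called inducible below), 6 regulatory ATPase and 11 regulatory non-ATPase subunits, 5 activators and inhibitors, and 7 assembly chaperones. The 2 others are Psmc3ip, which is no subunit but a meiotic recombination factor that binds Psmc3, and Psme2b, a copy of Psme2. The 2 excitatory libraries hold cells positive for αCaMKII from αCaMKII-Cre mice, and the 2 inhibitory libraries hold cells positive for vGAT from vGAT-IRES-Cre mice. Both transgenic lines were bred to wild-type C57Bl/6J mice, and male mice of 3 to 5 months were used. Each library was made from 100 fluorescent cells picked by hand. Whether libraries of the same label were made from different animals is not given by the labels. The p-values therefore cover the spread from library to library alone, and that spread may be technical.

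The proteasome degrades proteins that carry ubiquitin chains. Its core is a barrel of alpha rings, which gate the entrance, and beta rings, which hold the proteolytic sites, and a regulatory cap of ATPases and non-ATPases binds the chain, removes it and unfolds the substrate. Interferon-induced beta subunits can replace the constitutive catalytic ones and shift cutting towards peptides for antigen presentation, and other activators can take the place of the cap. In neurons the proteasome also takes part in the turnover of synaptic proteins.

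Gene values were deposited as log2(normalized reads + 1), and every difference below is excitatory minus inhibitory on that scale. The 4 libraries listed 12609 to 12798 genes above 0 and held an estimated 61700000 to 74200000 reads. Over the 13619 genes tested the median difference was 0.52, and the gene with the highest value, Mbp, is at 21.33 in each of the 4 libraries. How the authors scaled the libraries is not given in the sources used here. Whether the 0.52 shift arose in the cells or in the scaling cannot be told apart from these files, so a deposited difference is relative to a scale that is not known. Differences are therefore also given with the libraries rescaled by median of ratios, so that the typical gene differs by about 0 (called scaled below). Marker genes go only in part with the labels: Slc32a1, which encodes vGAT, is at 0 in each library, and the summed linear values of GABAergic markers were 15140 and 13220 in excitatory libraries, against 8829 and 9706 in inhibitory libraries. Those of glutamatergic markers were 110200 and 105500 in excitatory libraries, against 55780 and 57160 in inhibitory libraries. Oligodendrocyte markers summed to 2741000 to 2975000 and astrocyte markers to 1192000 to 2067000 over the 4 libraries, and their part in the differences below was not tested. Excitatory and inhibitory below therefore name libraries by their labels. Fewer cells of a type and less RNA per cell cannot be told apart in such pooled samples.

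Promoters of 42 of the 50 genes were found in the RefSeq table of build GRCm38.p6, each covering 250 bases before to 50 bases after the start that RefSeq gives. GENCODE starts can differ, and the Psmb8 and Psme1 windows lie wholly inside the spans GENCODE gives for these genes. The first 250 bases of these windows are therefore upstream of the RefSeq start alone. Those of 5 genes on which the results below turn are shown, with a motif match in capitals. In the first 3, of a cap subunit and 2 catalytic subunits, the capitals mark the core of the antioxidant response element bound by NFE2L1 and NFE2L2, the transcription factors known to drive proteasome genes. In Psmb8, an inducible catalytic subunit, they mark a gamma-activated site core, known from interferon-responsive genes. In Psme1, an activator gene, they mark the core of an interferon-stimulated response element. The Psmb8 match begins at base 154, before the RefSeq start, and the Psme1 match at base 260, after that start.
Psmd12 (chr11:107479278-107479577, plus strand): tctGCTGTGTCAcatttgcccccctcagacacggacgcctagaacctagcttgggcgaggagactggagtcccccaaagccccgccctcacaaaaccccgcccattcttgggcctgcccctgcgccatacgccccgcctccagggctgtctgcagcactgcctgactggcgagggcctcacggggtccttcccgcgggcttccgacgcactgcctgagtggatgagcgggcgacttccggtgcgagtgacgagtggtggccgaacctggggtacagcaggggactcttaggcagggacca
Psmb6 (chr11:70525107-70525406, plus strand): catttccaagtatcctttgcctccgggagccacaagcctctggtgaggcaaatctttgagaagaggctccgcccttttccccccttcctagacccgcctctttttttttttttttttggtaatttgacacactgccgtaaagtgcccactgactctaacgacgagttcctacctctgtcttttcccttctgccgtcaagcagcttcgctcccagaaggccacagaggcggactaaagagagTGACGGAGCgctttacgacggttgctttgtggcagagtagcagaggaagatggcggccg
Psmb5 (chr14:54617946-54618245, minus strand): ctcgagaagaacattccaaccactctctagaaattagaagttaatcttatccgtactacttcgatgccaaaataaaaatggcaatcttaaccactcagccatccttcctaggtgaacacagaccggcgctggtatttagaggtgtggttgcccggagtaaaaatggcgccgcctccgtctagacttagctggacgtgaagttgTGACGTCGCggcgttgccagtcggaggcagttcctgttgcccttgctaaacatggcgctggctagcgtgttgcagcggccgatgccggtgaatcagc
Psmb8 (chr17:34197945-34198244, plus strand): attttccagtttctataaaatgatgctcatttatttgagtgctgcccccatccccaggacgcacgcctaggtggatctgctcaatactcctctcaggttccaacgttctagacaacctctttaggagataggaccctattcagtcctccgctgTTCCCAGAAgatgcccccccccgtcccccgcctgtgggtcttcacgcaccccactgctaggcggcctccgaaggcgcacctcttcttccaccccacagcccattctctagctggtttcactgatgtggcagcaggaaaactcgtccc
Psme1 (chr14:55578244-55578543, plus strand): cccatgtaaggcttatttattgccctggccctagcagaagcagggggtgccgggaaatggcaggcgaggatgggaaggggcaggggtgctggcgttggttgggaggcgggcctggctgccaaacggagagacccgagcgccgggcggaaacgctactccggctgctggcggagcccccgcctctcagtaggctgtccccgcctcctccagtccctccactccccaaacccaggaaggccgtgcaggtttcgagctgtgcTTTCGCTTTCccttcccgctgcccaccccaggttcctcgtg
The antioxidant core was searched as TGACNNNGC on both strands, and it lies at base 4 of the Psmd12 window (on the opposite strand), base 242 of Psmb6 and base 204 of Psmb5. It was found in 6 of the 42 proteasome promoters (14.3%), against 14.0% of 27025 genes with a promoter in the table. The interferon-stimulated core, written as GAAA, any 2 bases and GAAA, was found in 5 of 42 (11.9%) against 3.99% of all. TTCNNNGAA, the gamma-activated core, was found in 3 of 42 (7.14%) against 9.55% of all. Besides Psme1, the interferon-stimulated core was in Psmb3, Psmd4 and Psmd9, which passed as higher in excitatory libraries, and in Psmg4, which did not pass. Besides Psmb8, the gamma-activated core was in Psmd2, higher in excitatory libraries, and Psmg1, higher in inhibitory libraries. A match is a description of letters and not a binding site.

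Subunit genes of the constitutive proteasome were among the more abundant genes in libraries of both labels. The 31 genes of the core (14) and the cap (17) had a median of 13.41 and 13.44 in the excitatory libraries, against 12.80 and 12.80 in inhibitory libraries. The median of all tested genes was 9.42 and 9.35 in excitatory libraries, against 8.98 and 8.99 in inhibitory libraries. Within each library this subunit median lay at percentile 90.2 to 91.1 of all tested genes. Psma8, the testis-specific alpha subunit, was listed at 0 in all 4 libraries, and Psmb11, the thymus-specific beta subunit, stood at 2.34 and 0 in excitatory libraries, against 1.10 and 0 in inhibitory libraries. Psma8 is the 1 member that was not tested, and the other 49 passed the filter on low values.

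**Figure D1:**
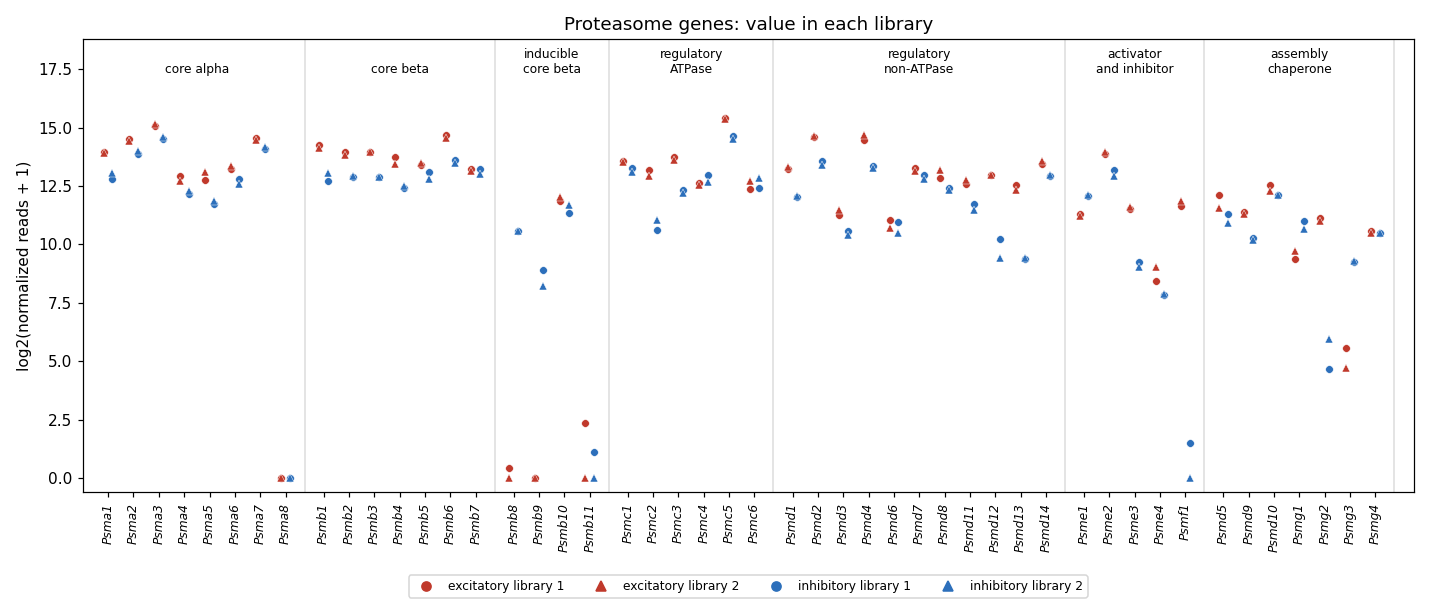
Value of each proteasome gene, as log2(normalized reads + 1), in each of the 4 libraries, with excitatory libraries in red to the left of inhibitory libraries in blue, for the 48 genes with a class. Most core and cap genes lie between 10 and 16 in every library, while Psmb8, Psmb9, Psmf1, Psmg2 and Psmg3 lie far apart between the labels.

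Most proteasome genes were higher in the excitatory libraries, by amounts close to the shift of the typical gene. Of the 49 tested, 31 passed as higher in excitatory and 6 as higher in inhibitory libraries by limma's moderated test (adjusted p under 0.05 over all genes), and 12 did not pass. Of all tested genes 71.8% passed, 45.0% higher in the excitatory and 26.8% higher in the inhibitory libraries. The median difference of the 49 was 0.64, beside 0.52 for all tested genes. After scaling 18 passed as higher in excitatory and 8 as higher in inhibitory libraries, where 65.9% of all genes passed, 32.4% and 33.5% in these directions. Of the 37 calls, 24 held after scaling with the same direction, 13 did not pass, and none passed in the opposite direction. Among those that did not pass, the scaled difference of Psma2, Psma7, Psmb5, Psmc1 and Psmd14 changed sign. The values of the labels did not overlap for 44 of the 49, as for 86.4% of all tested genes. With 1 library left out its label has a lone library, which is assumed to vary like the other label's, and fewer genes pass in general. The members called numbered 20 without excitatory replicate 1, where 45.2% of all genes passed, and 19 without excitatory replicate 2, where 44.8% passed. They numbered 26 without inhibitory replicate 1 (47.4% of all genes) and 25 without inhibitory replicate 2 (48.1%). None of the 37 called members changed sign in these fits, so a call given below as lost is a p-value past the threshold in a smaller fit.

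Differences among the 31 constitutive subunits spanned a narrow range, mainly those of the core genes. Higher values in excitatory libraries passed the test for 26 of them and in inhibitory libraries for none, while among the 5021 tested genes with a mean value of at least 10, a level that all 31 reach, 54.1% were higher in excitatory libraries (67.1% in either direction). After scaling 14 of the 31 passed as higher in excitatory and 2 as higher in inhibitory libraries. Of the genes with a mean of at least 10, 29.1% passed as higher in excitatory libraries after scaling. The difference of 28 of the 31 (90.3%) lay within 1 log2 unit of the all-gene median, a range that holds 39.6% of all tested genes and 68.3% of those with a mean of at least 10. The 3 outside it were the cap genes Psmc2, Psmd12 and Psmd13. The standard deviation of the differences was 0.37 among the 14 core genes and 0.98 among the 17 cap genes, beside 1.23 over the genes with a mean of at least 10. Over all tested genes it was 4.17. The subunits had library medians of 12.80 to 13.44, so genes with a mean of at least 10 are not matched to them in level. The part of abundance in the narrow range was not tested. These are descriptions, since subunits share libraries and are not replicates.

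**Figure D2:**
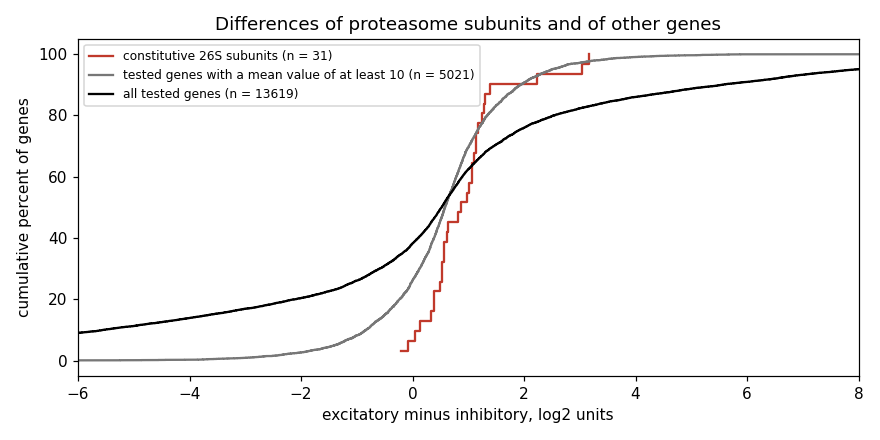
Cumulative percent of genes by their difference, excitatory minus inhibitory in log2 units, for the 31 constitutive subunits (red), the 5021 tested genes with a mean value of at least 10 (grey) and all 13619 tested genes (black). The red line climbs over a narrower range than the black one, with 3 cap genes above 2.

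The alpha subunits, which form the outer rings and the gate of the core, were all higher in the excitatory libraries and close to the shift. All 7 tested passed, with differences of 0.38 (Psma7) to 1.15 (Psma5) and a median of 0.57. Psma1 stood at 13.94 and 13.93 in excitatory libraries, against 12.79 and 13.06 in inhibitory libraries, or 2.01-fold (1.01, SE 0.13, limma adjusted p = 0.00232), and scaled values differed 1.38-fold (0.0226). Psma5 was 2.21-fold higher (1.15, SE 0.16, limma adjusted p = 0.00297), and 1.52-fold after scaling (adjusted p = 0.0347). The other 5 did not pass after scaling, where their differences ran from -0.16 (Psma7) to 0.07 (Psma4). Without excitatory replicate 1 or excitatory replicate 2 the Psma1 difference was 1.0 and 1.01 (adjusted p = 0.078 and 0.0766), and without inhibitory replicate 1 or inhibitory replicate 2 the Psma5 difference was 1.09 and 1.20 (0.0768 and 0.0678). The other 5 also missed the threshold in at least 1 of these smaller fits. Psma3, Psma4 and Psma5 have processed pseudogenes of at least 95% identity over at least 200 bases, so their values are uncertain.

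The constitutive beta subunits, which include the catalytic ones, were shifted further as a class, apart from Psmb5 and Psmb7. Of 7 tested, 6 were higher in the excitatory libraries, with a median difference of 1.07, and after scaling 5 were higher there and Psmb7 was higher in the inhibitory libraries. Psmb1, a non-catalytic subunit, stood at 14.27 and 14.12 in excitatory libraries, against 12.73 and 13.05 in inhibitory libraries (1.31, SE 0.15, limma adjusted p = 0.00147; scaled 0.77, 0.00591), a call lost without excitatory replicate 1 (0.0722) or excitatory replicate 2 (0.0633). Psmb2, Psmb3 and Psmb4, further structural subunits, differed by 0.98 to 1.14 and passed in both scalings. Psmb2 and Psmb3 kept their call without each library, and Psmb4 lost it without inhibitory replicate 1 (0.0777) or inhibitory replicate 2 (0.0679).

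The 3 constitutive catalytic subunits lay at different places against the shift. Psmb6, which cuts after acidic residues, stood at 14.69 and 14.55 in excitatory libraries, against 13.61 and 13.50 in inhibitory libraries, a 2.10-fold difference (1.07, SE 0.10, limma adjusted p = 8.44e-04). It was 1.44-fold after scaling (adjusted p = 0.0128) and passed with any 1 library left out. Psmb5, which has the chymotrypsin-like activity, had 13.41 and 13.48 in excitatory libraries, against 13.11 and 12.80 in inhibitory libraries, a difference of 0.49 (SE 0.15, limma adjusted p = 0.0348) that was -0.05 after scaling (adjusted p = 0.815) and lost its call without excitatory replicate 1 (0.197), excitatory replicate 2 (0.231) or inhibitory replicate 2 (0.0815). Psmb5 and Psmb6 have near-identical pseudogenes, as do Psmb3, Psmc1 and Psmd2, so that their values are uncertain. Psmb7, which has the trypsin-like activity, stood at 13.24 and 13.12 in excitatory libraries, against 13.23 and 13.03 in inhibitory libraries. Its values overlapped and the test was not passed (0.05, SE 0.13, limma adjusted p = 0.739), except in scaled values (-0.49, 0.0338). Measured from the shift of the typical gene, Psmb6 passed above it, Psmb7 passed below it, and Psmb5 passed in neither direction. Psmb7 shares 405 exonic bases with Nek6 on the opposite strand, so its value is uncertain too. Nek6 differed by -0.37 (limma adjusted p = 0.113), and by -0.92 after scaling (0.0112). The part of Nek6 reads in the Psmb7 values was not tested.

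Psmb8 and Psmb9, inducible catalytic subunits, were the proteasome subunits with the largest differences towards the inhibitory libraries. Psmb8, the counterpart of Psmb5, stood at 0.43 and 0 in excitatory libraries, against 10.58 and 10.57 in inhibitory libraries (difference -10.36, SE 0.35, limma adjusted p = 9.49e-05; scaled -10.67, 1.24e-04). Psmb9, the counterpart of Psmb6, was at 0 in both excitatory libraries, against 8.91 and 8.23 in inhibitory ones (-8.57, SE 0.40, limma adjusted p = 1.20e-04; scaled -8.84, 1.56e-04). Both passed with any 1 library left out. The third inducible subunit went another way: Psmb10, the counterpart of Psmb7, stood at 11.86 and 12.03 in excitatory libraries, against 11.34 and 11.70 in inhibitory libraries, and its difference of 0.42 (SE 0.19) did not pass (limma adjusted p = 0.109; scaled -0.12, 0.58). Psmb10 was thus far above 0 in the excitatory libraries, where Psmb8 and Psmb9 were at or near 0.

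Set per kilobase of annotated exons, the inducible subunits were minor beside their constitutive counterparts except Psmb10. The linear level of Psmb8 was 4.59% and 5.69% of that of Psmb5 in inhibitory libraries 1 and 2, and that of Psmb9 was 1.96% and 1.32% of that of Psmb6. Psmb10 stood at 76.6% and 93.8% of Psmb7 in the excitatory libraries, against 54.1% and 79.8% in the inhibitory ones, so these ratios overlapped. Exon lengths include every annotated transcript form, so levels set per kilobase are approximate.

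**Figure D3:**
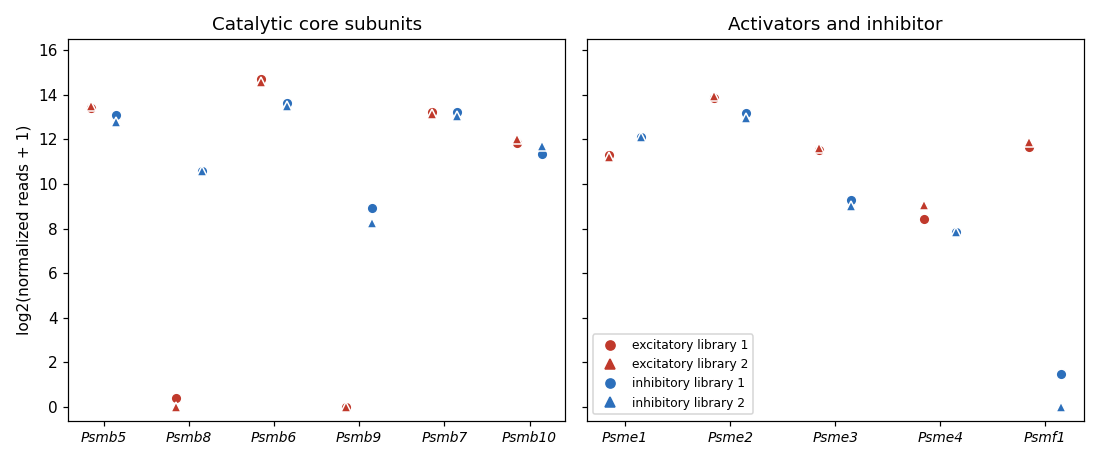
Values, as log2(normalized reads + 1), of the catalytic core subunits beside their inducible counterparts (left panel) and of the activators and the inhibitor (right panel), with excitatory libraries in red to the left of inhibitory libraries in blue. Psmb8 and Psmb9 are at or near 0 in the excitatory libraries only, and Psmf1 is at or near 0 in the inhibitory libraries only.

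Psmb8 and Psmb9 are neighbours in the major histocompatibility region, and Tap1, which encodes a peptide transporter subunit, lies between them. On mm10, Psmb9 spans chr17:34181987-34187764 on the minus strand, Tap1 chr17:34187553-34197225 on the plus strand and Psmb8 chr17:34197721-34201454 on the plus strand. Tap1 was listed at 0 in all 4 libraries, as were Tap2, the other transporter subunit, and Nlrc5, an activator of class I genes. Tap1 shares 212 exonic bases with Psmb9 on the opposite strand, and the antisense gene Gm20496 shares 498 with Psmb8, so reads of the shared bases cannot be assigned to 1 gene. The 4 values of Psmb9 are also those listed for Arg1, an arginase gene on another chromosome.

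Other interferon-linked and immune genes moved both ways. Irf1, an interferon-induced transcription factor gene, was at 0 in both excitatory libraries, against 8.94 and 8.73 in the inhibitory ones. The class I genes H2-K1 (2.40, SE 0.28, limma adjusted p = 0.00159) and H2-D1 (2.53, SE 0.18, 3.55e-04) and B2m, their light chain (0.64, SE 0.11, 0.00577), were higher in the excitatory libraries, B2m not after scaling (0.377). H2-K1 missed the threshold without excitatory replicate 1 (0.0733) or excitatory replicate 2 (0.0812), and B2m whichever library was left out (0.0594 to 0.0892). In the whole list of leukocyte and antigen presentation genes, 4 of 8 tested passed as higher in excitatory and 3 as higher in inhibitory libraries, 3 further genes were at 0 in all 4, and the summed linear values were 42260 and 41430 in excitatory libraries, against 38360 and 35760 in inhibitory libraries. The leukocyte genes Ptprc and Vav1 were also listed at 0 in both excitatory libraries, against 12.01 and 11.80 (Ptprc) and 13.97 and 13.57 (Vav1) in inhibitory libraries. Of the 8 microglia markers, 0 passed as higher in excitatory and 5 as higher in inhibitory libraries (0 and 7 scaled), with summed linear values of 26300 and 28970 in excitatory libraries, against 62410 and 50410 in inhibitory libraries. None of the 8 was at 0 in any library, and the part of microglial RNA in the Psmb8 and Psmb9 values was not tested.

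The ATPases, which form the ring that unfolds substrates, differed in size, and in sign only through differences that did not pass in the deposited values. Of 6 tested, 4 were higher in the excitatory libraries and none in the inhibitory ones (median 0.59), and after scaling 2 and 1. Psmc2 stood at 13.17 and 12.95 in excitatory libraries, against 10.62 and 11.05 in inhibitory libraries, a 4.68-fold difference (2.23, SE 0.21, limma adjusted p = 7.39e-04; scaled 1.68, 0.00152) that was lost without excitatory replicate 1 (0.0553) or excitatory replicate 2 (0.0501). Psmc3 was 1.39 higher (SE 0.12, limma adjusted p = 6.17e-04; scaled 0.84, 0.00439) and passed with any 1 library left out. Psmc4 stood at 12.64 and 12.55 in excitatory libraries, against 12.96 and 12.66 in inhibitory libraries, which did not pass (-0.21, limma adjusted p = 0.268) until scaled (-0.75, 0.0165). Psmc1 and Psmc5 were 0.38 and 0.81 higher and passed in the deposited values alone (scaled limma adjusted p = 0.305 and 0.0796), Psmc1 not without excitatory replicate 1 (0.138), excitatory replicate 2 (0.122) or inhibitory replicate 2 (0.0682) and Psmc5 not without excitatory replicate 1 (0.0534). Psmc3 shares 215 exonic bases with Slc39a13, which was at 0 in both excitatory libraries, against 11.43 and 10.83 in inhibitory libraries. Psmc6 overlapped between the labels, with 12.36 and 12.71 in excitatory libraries, against 12.40 and 12.84 in inhibitory libraries. Psmc5 was the most abundant subunit per kilobase, with 31580 and 30270 linear units in excitatory libraries, against 18540 and 16820 in inhibitory libraries. In a complex that holds these ATPases in equal number, the transcript differences therefore ranged from -0.21 (Psmc4, not passed) to 2.23 (Psmc2).

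The non-ATPases, which form the base and lid of the cap, held the largest differences of any constitutive class. Of 11 tested, 9 were higher in the excitatory libraries and none in the inhibitory ones (median 1.10), and after scaling 5 and none. Psmd12, a lid subunit, stood at 12.99 and 12.99 in excitatory libraries, against 10.25 and 9.40 in inhibitory libraries, 8.96-fold (3.16, SE 0.32, limma adjusted p = 9.22e-04; scaled 2.62, 0.00296). The call was lost without excitatory replicate 1 (0.0735) or excitatory replicate 2 (0.0733). Psmd13, another lid subunit, had 12.56 and 12.31 in excitatory libraries, against 9.38 and 9.42 in inhibitory libraries, 8.19-fold (3.03, SE 0.18, limma adjusted p = 2.06e-04; scaled 2.49, 3.64e-04), and passed with any 1 library left out. Psmd13 shares 342 exonic bases with Sirt3 on the opposite strand, which differed by 1.08 (SE 0.09, limma adjusted p = 4.52e-04).

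Other lid and base genes stayed nearer to the shift. Psmd1 and Psmd2, the large scaffold subunits, and Psmd4, a ubiquitin receptor, were 1.17 to 1.28 higher, passed in both scalings and kept their calls without each library. Psmd11 was 1.10 higher (limma adjusted p = 0.0033) and missed the threshold after scaling (0.0524) and without excitatory replicate 1 (0.0624) or excitatory replicate 2 (0.0728). Psmd14, the deubiquitinase of the lid, differed by 0.54 (SE 0.11, limma adjusted p = 0.0109) and by -0.01 after scaling, while Psmd3 and Psmd8 passed only in the deposited values. Psmd14, Psmd3 and Psmd8 missed the threshold with at least 3 of the 4 libraries left out in turn. Psmd6 (11.03 and 10.69 in excitatory libraries, against 10.97 and 10.49 in inhibitory libraries) and Psmd7 (13.28 and 13.16 in excitatory libraries, against 12.98 and 12.79 in inhibitory libraries) did not pass in either scaling. Per kilobase, the 17 cap genes spread 64.9-fold and 53.5-fold from the lowest to the highest in the excitatory libraries, against 94.1-fold and 82.9-fold in the inhibitory ones, and the 14 core genes 4.98-fold and 4.91-fold in excitatory, against 6.65-fold and 4.30-fold in inhibitory libraries.

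**Figure D4:**
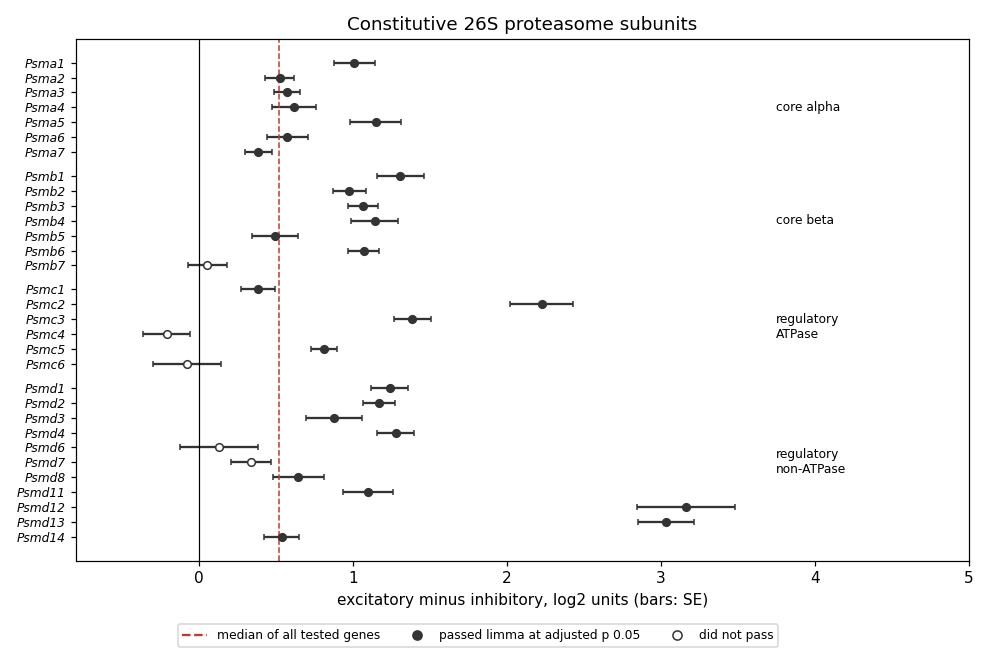
Difference of each constitutive subunit gene, excitatory minus inhibitory in log2 units, with its SE as a bar, grouped by class from the alpha ring at the top to the non-ATPases at the bottom. Most points lie between 0 and 1.4 around the all-gene median of 0.52 (dashed), and Psmc2, Psmd12 and Psmd13 lie above 2.

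Activators that replace the cap went in opposite directions. PSME1 and PSME2 together form the interferon-inducible activator PA28, and their genes are neighbours on mm10, Psme1 at chr14:55578123-55581529 on the plus strand and Psme2 at chr14:55587441-55591113 on the minus strand. Psme1 stood at 11.31 and 11.20 in excitatory libraries, against 12.09 and 12.11 in inhibitory libraries, 1.80-fold higher in the inhibitory ones (-0.85, SE 0.14, limma adjusted p = 0.00523; scaled -1.39, 0.00114), and passed with any 1 library left out. Psme2 had 13.85 and 13.94 in excitatory libraries, against 13.17 and 12.94 in inhibitory libraries, which was 1.79-fold higher in excitatory libraries (0.84, SE 0.13, limma adjusted p = 0.00349) but did not pass after scaling (0.30, 0.147) or without excitatory replicate 1 (0.0741) or excitatory replicate 2 (0.0833). Per kilobase, Psme1 was 0.137 and 0.12 times Psme2 in the excitatory libraries, against 0.379 and 0.45 times in the inhibitory ones. Psme2b is 99.4% identical to Psme2 over 794 bases, had 6.64 and 7.33 in excitatory libraries, against 6.72 and 6.25 in inhibitory libraries, and overlapped, so reads may be split between the copies.

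Psme3, whose product activates nuclear proteasomes, and Psmf1, an inhibitor of the core, stood apart. Psme3 stood at 11.52 and 11.61 in excitatory libraries, against 9.26 and 9.02 in inhibitory libraries, 5.36-fold (2.42, SE 0.19, limma adjusted p = 4.77e-04; scaled 1.88, 0.00167), with the call kept without each library. Psmf1 stood at 11.63 and 11.88 in excitatory libraries, against 1.5 and 0 in inhibitory libraries (11.01, SE 0.59, limma adjusted p = 1.56e-04; scaled 10.63, 3.02e-04) and also passed with any 1 library left out. Psme4, the gene of the large activator PA200, had 8.42 and 9.04 in excitatory libraries, against 7.84 and 7.86 in inhibitory libraries and did not pass (0.88, SE 0.32, limma adjusted p = 0.0584). Across all genes such wide gaps were frequent: 44.4% of tested genes differed by more than 2 in either direction, against 10 of the 49 proteasome rows, and 15.5% were at 0 in both libraries of 1 label and at least 1 in both of the other, against 2 of the 49 (Psmb9 and Psmc3ip). Psmc3ip stood at 0 and 0 in excitatory libraries, against 9.75 and 9.49 in inhibitory libraries, and shares 385 exonic bases with Mlx on the opposite strand, which was at 0 and 0 in excitatory libraries, against 5.43 and 6.09 in inhibitory libraries.

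Assembly chaperones hold unfinished rings and bases together. Of 7 tested, 2 passed as higher in excitatory and 2 as higher in inhibitory libraries in both scalings (median 0.32, scaled -0.23). PSMG1 and PSMG2 act as a pair in building the alpha ring, yet their genes went opposite ways. Psmg2 stood at 11.14 and 11.00 in excitatory libraries, against 4.65 and 5.95 in inhibitory libraries (5.76, SE 0.50, limma adjusted p = 5.92e-04; scaled 5.23, 9.26e-04), a call lost without excitatory replicate 1 (0.0628) or excitatory replicate 2 (0.0612). Psmg1 had 9.37 and 9.70 in excitatory libraries, against 11.00 and 10.66 in inhibitory libraries (-1.29, SE 0.24, limma adjusted p = 0.00729; scaled -1.83, 0.00384) and lost its call whichever of the 4 libraries was left out (0.0628 to 0.0919). The second pair, PSMG3 and PSMG4, differed as well: Psmg3 stood at 5.58 and 4.69 in excitatory libraries, against 9.25 and 9.27 in inhibitory libraries (-4.12, SE 0.40, limma adjusted p = 8.62e-04; scaled -4.66, 6.81e-04), lost without inhibitory replicate 1 (0.057) or inhibitory replicate 2 (0.0566), and shares 280 exonic bases with Gm26938. Psmg4 had 10.59 and 10.49 in excitatory libraries, against 10.47 and 10.47 in inhibitory libraries and did not pass (0.06, SE 0.17, limma adjusted p = 0.759). Among the chaperones of the cap base, Psmd9 was 1.10 higher in excitatory libraries (SE 0.17, limma adjusted p = 0.00365; scaled 0.56, 0.0383), while Psmd5 and Psmd10 did not pass. Psmd9 shares 1849 exonic bases, or 25.5% of its exonic length, with the lincRNA gene Gm26745 on the opposite strand, so its value is uncertain.

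In the deposited values of all 4 libraries, genes around the proteasome passed the test about as often as all genes. The 5 lists cover ubiquitin supply, conjugation, shuttling, accessory components and transcriptional control. Over them 35 of 66 tested genes passed as higher in excitatory and 13 as higher in inhibitory libraries (median 0.53). These 48 calls are 72.7% of the 66, beside 71.8% of all tested genes, and the median stands beside 0.52. After scaling 17 and 22 passed in these directions, where 32.4% and 33.5% of all tested genes did. With 1 library left out, a smaller share of the 66 passed than of all tested genes, whichever library it was. Shares per list ran from 62.5% to 80.0%, so the counts below are descriptions and nothing is read from them about a list. Nfe2l1, whose product activates proteasome genes when proteolysis is short, stood at 12.70 and 12.71 in excitatory libraries, against 11.31 and 11.17 in inhibitory libraries (1.47, SE 0.14, limma adjusted p = 7.92e-04; scaled 0.92, 0.0058). Of the enzymes known to process NFE2L1, Ngly1 was 2.54 higher in excitatory libraries (SE 0.27, limma adjusted p = 0.00119), though not without inhibitory replicate 2 (0.0552), while the protease gene Ddi2 was at 0 in both excitatory libraries, against 5.83 and 5.33 in the inhibitory ones. In the list of transcriptional control, of 10 genes tested, 4 passed as higher in excitatory and 4 as higher in inhibitory libraries. Nfe2l2 was among the latter, with 10.03 and 10.52 in excitatory libraries, against 11.43 and 11.29 in inhibitory libraries (-1.085, SE 0.23, limma adjusted p = 0.0119). Its scaled difference was -1.63 (limma adjusted p = 0.00507), and the call in the deposited values was lost with some libraries left out. Sel1l, of the membrane complex that retrotranslocates proteins, was among those higher in excitatory libraries (1.27, SE 0.19, limma adjusted p = 0.00371; scaled 0.73, 0.0178), but not without excitatory replicate 1 (0.0772), excitatory replicate 2 (0.0632) or inhibitory replicate 1 (0.0555).

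Of 9 accessory components of the particle tested, 4 passed as higher in excitatory and 2 as higher in inhibitory libraries (2 and 3 after scaling). Usp14, a deubiquitinase that binds the cap, stood at 11.45 and 11.85 in excitatory libraries, against 13.84 and 13.95 in inhibitory libraries, 4.74-fold higher in the inhibitory ones (-2.24, SE 0.18, limma adjusted p = 4.62e-04; scaled -2.79, 4.09e-04). Adrm1, a ubiquitin receptor of the cap, went the other way (1.54, SE 0.21, limma adjusted p = 0.00251; scaled 0.99, 0.0136) and lost its call without inhibitory replicate 1 (0.0509). Txnl1, a thioredoxin-like protein of the cap, stood at 12.46 and 12.18 in excitatory libraries, against 4.95 and 6.33 in inhibitory libraries, a call lost without excitatory replicate 1 (0.0572) or excitatory replicate 2 (0.0551). Pomp, which matures the beta ring, was 0.74 higher (SE 0.10, limma adjusted p = 0.00248), not after scaling (0.147).

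Shuttle factors that bring substrates to the cap gave 8 genes of 15 tested higher in excitatory and 4 in inhibitory libraries (6 and 5 after scaling). Rad23b, a shuttle that carries ubiquitinated proteins, had 4.18 and 3.47 in excitatory libraries, against 9.54 and 10.10 in inhibitory libraries (-5.99, SE 0.41, limma adjusted p = 3.05e-04; scaled -6.51, 2.66e-04). Faf1, an adaptor of the unfoldase VCP, had 10.23 and 10.16 in excitatory libraries, against 0 and 1.79 in inhibitory libraries, a call lost without excitatory replicate 1 (0.0515) or excitatory replicate 2 (0.0515). Among ubiquitin and its activating enzymes, 5 of 8 tested were higher in the excitatory libraries and none in the inhibitory ones (2 and 1 after scaling), with Uba6, an alternative activating enzyme gene, at 7.79 and 7.40 in the excitatory libraries and listed at 0 in both inhibitory ones. The ubiquitin genes Ubb and Rps27a were 0.89 and 0.60 higher and did not pass after scaling (limma adjusted p = 0.0753 and 0.673). Ubb also missed the threshold without inhibitory replicate 1 (0.136) or inhibitory replicate 2 (0.136), and Rps27a without excitatory replicate 1 (0.189) or excitatory replicate 2 (0.188). Nae1, which activates the ubiquitin-like NEDD8, was 1.46 higher (SE 0.22, limma adjusted p = 0.00369; scaled 0.91, 0.0143), a call lost without 3 of the 4 libraries (0.0514 to 0.0836). Of 25 conjugating enzymes tested, 14 passed as higher in excitatory and 4 as higher in inhibitory libraries, and 4 and 10 after scaling. Ube2q1 (3.98, SE 0.19, limma adjusted p = 1.24e-04) and Ube2g2 (2.31, SE 0.20, 6.24e-04) passed in both scalings, as did Ube2l6, an enzyme for the interferon-induced modifier ISG15, with 7.50 and 8.03 in the excitatory libraries and 0 in both inhibitory ones.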

How the data were processed

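The values analysed are those the authors deposited: 1 log2 value per gene for each of 4 libraries, made per the labels' protocols with the SMART-seq v4 and Nextera XT kits. The submitters' processing notes name TopHat, edgeR and mm10 with no version, and which tool counted the reads, on which annotation, is not given in the sources used here. That the log2 values hold reads plus 1 was read from evenly spaced bands of low values, whose spacing also gave the estimated reads; counting intervals were not computed. In R 4.3.3, limma 3.58.1 with a mean-variance trend fitted 13619 genes that reached 1 in 2 or more libraries, and p-values were adjusted over all of them by the Benjamini-Hochberg method. The fit was tested on simulated data. The tables hold log2 values, so the count test that had been provided for was not needed. Exon lengths, overlaps and coordinates came from GENCODE M21, on the build of mm10 (lengths for 95.7% of symbols and all 50 members), and near-identical transcripts from blastn. The members and lists were chosen with earlier results of these data known. Full values are given for the catalytic subunits, the activators and the 6 called members with the largest difference in each direction. Up to 4 genes per pathway list are given by smallest p. Arg1, Mbp, Sirt3, Mlx, Nek6, Nfe2l2, the marker genes and the other members given with values were named after their values were seen. Some genes of the lists are not reported here. Alternatives were another scaling, filter or added constant, no trend, a replicate block and leaving out each library.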

Additional observations from a re-analysis of the deposited data

How the results depend on the processing

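Scaling changed calls of small differences. The count of proteasome genes higher in the excitatory libraries was 31 in the deposited values, 18 after median-of-ratios scaling and 20 after upper-quartile scaling, while the median difference of all members was 0.172 and 0.175, that of alpha subunits 0.029 and 0.032, beta subunits 0.523 and 0.526, ATPases 0.051 and 0.054, non-ATPases 0.554 and 0.557, activators and the inhibitor 0.34 and 0.342, and chaperones -0.225 and -0.222. The sign turned under these scalings for 12 members: Psma2 (-0.021 and -0.018), Psma7 (-0.16 and -0.157), Psmb5 (-0.052 and -0.049), Psmb7 (-0.491 and -0.488), Psmb10 (-0.124 and -0.121), Psmc1 (-0.163 and -0.16), Psmd14 (-0.007 and -0.004), Psmd6 (-0.415 and -0.413), Psmd7 (-0.206 and -0.203), Psmd10 (-0.225 and -0.222), Psmg4 (-0.477 and -0.475) and Psme2b (-0.034 and -0.031). The inducible class had a median of -4.08, of -8.57 with a minimum of 5, which leaves out Psmb11, and of -2.26 with 16 added before the log. Leaving out 1 library gave 19 to 26 calls among the members, 14 to 22 of them higher in the excitatory libraries, and 21 to 25 calls in the pathway lists; medians ran from 0.618 to 0.87 for all members. Medians ran from 0.982 to 1.078 for beta subunits, 0.968 to 1.212 for non-ATPases, 0.798 to 1.191 for activators and the inhibitor, and 0.181 to 0.454 for chaperones. Signs turned for Psmb7 (-0.046 to 0.15), Psmb11 (-0.552 to 1.788), Psmc6 (-0.3 to 0.136) and Psmd6 (-0.115 to 0.369), which did not pass in the deposited values. No label says whether equal replicate numbers pair the libraries. Deviations from the label means of libraries with the same number had a correlation of -0.0019 across genes, which cannot settle this. The replicate block gave 37 calls, with Psmc1 lost (limma adjusted p = 0.0597) and Psmd5 gained (0.0202). Without the mean-variance trend 9 of the members lost their call. With no counting intervals and 2 libraries a label, a difference that did not pass is not shown to be absent.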
